A study of Mus musculus with 12 samples.

Results

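The genes described here are the erasers and readers of N6-methyladenosine (m6A) other than *Ythdf2*: the demethylases *Fto* and *Alkbh5* and the readers *Ythdf1*, *Ythdf3*, *Ythdc1*, *Ythdc2*, *Igf2bp1*, *Igf2bp2*, *Igf2bp3* and *Hnrnpa2b1*. They were taken by symbol as known erasers and readers, and all 10 were found among the 24525 genes of the count tables. Of these, 9 passed the filter on low counts and *Igf2bp1* did not. The question was whether another reader, or an eraser, was more abundant in cells that lack *Ythdf2*.

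The cells were neural stem/progenitor cells (NSPCs) grown as neurospheres, floating cultures of dividing progenitors, from the forebrain of C57BL/6 mouse embryos at E14.5, a day of gestation when the cortex is forming. They were kept in medium with the growth factors EGF and bFGF and taken at passage 1, in both groups. The 3 wild-type libraries carried an intact *Ythdf2* gene. The 3 Ythdf2-/- libraries came from embryos homozygous for a germline deletion, made by crossing mice with LoxP sites around the 5′ UTR and first exon of *Ythdf2* to mice that express Cre recombinase in all tissues, and then intercrossing heterozygotes. The deletion was therefore present in every cell from the start of development and not only in NSPCs. All 6 are the input libraries of an m6A immunoprecipitation, made from fragmented mRNA that never met the antibody. The immunoprecipitated libraries were not analysed here, so no m6A level is reported for any of these genes.

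m6A is a methyl mark on internal adenosines of mRNA. Erasers such as Alkbh5 and Fto take it off by oxidation, and readers recognise it. Proteins of the YTH family bind the methylated base in a pocket of their YTH domain: Ythdf1, Ythdf2 and Ythdf3 do so in the cytoplasm, where Ythdf2 brings transcripts to the deadenylation and decay machinery, Ythdc1 does so in the nucleus, and Ythdc2 is an RNA helicase best known from the germ line. Igf2bp proteins bind through KH domains and are described as stabilising the transcripts they hold, and Hnrnpa2b1 is an abundant nuclear protein with roles in splicing and microRNA processing.

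The libraries held 11029827 to 13185778 counted reads. Wild type replicate 3 stood apart from the other 5: on the first principal component, which held 67.7% of the variance, it lay at 103.3 and the others between -33.4 and -3.86. Its 6 proliferation markers summed to 124.1 CPM (reads scaled to the library total after TMM normalization), against 1620 to 2396 in the other libraries, and its astroglial markers to 7372 CPM, against 993.1 to 3191. It was also the highest library in neuronal (2062 CPM), oligodendrocyte lineage (3424 CPM) and mesenchymal (32.2 CPM) markers, where the others reached 1322, 1903 and 5.20 CPM. Progenitor markers were present in all 6 libraries, at a summed 3738 to 6622 CPM, while the microglial marker *C1qa* and the endothelial marker *Cldn5* were at 0 throughout, and their lists summed to 2.73 to 5.72 and 0.815 to 1.62 CPM. Reads on 4 Y-linked genes numbered 1111, 1638 and 1 in the wild-type libraries and 0, 1 and 2147 in the Ythdf2-/- libraries, so that 2 of 3 and 1 of 3 libraries had more than a trace of them. For the tested members, differences between genotypes are therefore also given without wild type replicate 3. These are bulk libraries, in which fewer cells of a type and less RNA per cell cannot be told apart. The study describes the libraries as biological replicates. The embryos or litters behind each are not given in the sources used here.

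*Ythdf2* itself, on chromosome 4 from 132184916 to 132212256 (minus strand, 5 exons, GRCm38, the assembly also called mm10), had 840, 961 and 999 reads in the wild-type libraries and 137, 198 and 138 in the Ythdf2-/- libraries. The groups did not overlap, and the Ythdf2-/- level was 15.8% of wild type (log2 fold change -2.66, SE 0.183, adjusted p = 0.0547 by edgeR's quasi-likelihood test and 8.61e-47 by DESeq2). The tables give no reads per position, so where in the gene the remaining reads lie was not tested. Fold changes are given as Ythdf2-/- over wild type throughout, and adjusted p-values are over all genes tested.

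*Ythdf1* and *Ythdf3*, the other cytosolic YTHDF readers, were slightly more abundant without *Ythdf2*, by amounts within the error of the test. *Ythdf1*, on chromosome 2 from 180904377 to 180920936, and *Ythdf3*, on chromosome 3 from 16183148 to 16217037, are its paralogs and bind the same mark. The coding sequences of *Ythdf1* and *Ythdf2* were 70.4% identical, those of *Ythdf2* and *Ythdf3* 71.6% and those of *Ythdf1* and *Ythdf3* 71.2%, over RefSeq transcripts of 559, 579 and 596 codons for *Ythdf1*, *Ythdf2* and *Ythdf3*. To show how far reads of a deleted gene could be taken for reads of a paralog, the longest stretch shared by each pair is printed in capitals with its flanks in lower case, 5′ to 3′ on the coding strand of GRCm38. For *Ythdf1* and *Ythdf2* it is 22 bases long, at chr2:180911606-180911635 and chr4:132205099-132205128, both on the minus strand.
Ythdf1: agccATTGCTAGCAAGCCTGCAAAACcaca
Ythdf2: tgatATTGCTAGCAAGCCTGCAAAACaaca
For *Ythdf2* and *Ythdf3* it is 17 bases long, at chr4:132205005-132205033 on the minus strand and chr3:16204508-16204536 on the plus strand.
Ythdf2: acatggATATTGGAACTTGGGATaacaag
Ythdf3: acatgaATATTGGAACTTGGGATgaaaag
For *Ythdf1* and *Ythdf3* it is also 17 bases long, at chr2:180911135-180911163 on the minus strand and chr3:16204948-16204976 on the plus strand.
Ythdf1: atcatcAAGAGCTATTCTGAGGAcgacat
Ythdf3: ataattAAGAGCTATTCTGAGGAtgatat
No stretch of 32 coding bases was therefore common to any pair. Of all 32-base words in the exons, 0.0% of those of *Ythdf1* and 0.911% of those of *Ythdf3* occurred more than once in the genome, against 21.1% for *Ythdf2*.

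*Ythdf1* had 987, 1188 and 920 reads in the wild-type libraries, or 84.5, 90.7 and 84.2 CPM, and 1134, 1211 and 1215 in the Ythdf2-/- libraries, or 96.7, 89.7 and 97.8 CPM. In 2 of the 3 Ythdf2-/- libraries it was above all wild-type libraries, and in replicate 2 it was not. The mean went from 86.5 ± 3.66 to 94.7 ± 4.40 CPM (SD, n = 3 each). By edgeR the log2 fold change was 0.13 (SE 0.110, adjusted p = 0.9994), with a 95% interval of -0.13 to 0.40. An increase of *Ythdf1* above 1.32-fold therefore lay outside the interval.

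*Ythdf3* had 1415, 1552 and 1481 reads in wild type (121.1, 118.4 and 135.5 CPM) and 1563, 1773 and 1804 reads in Ythdf2-/- (133.3, 131.3 and 145.1 CPM). The groups overlapped only through wild type replicate 3. The mean was 125.0 ± 9.20 CPM in wild type and 136.6 ± 7.50 CPM in Ythdf2-/- (SD, n = 3 each). The log2 fold change was 0.13 (SE 0.119, 95% interval -0.16 to 0.41, adjusted p = 0.9994 by edgeR), which puts the upper bound at 1.33-fold. Without wild type replicate 3 the estimates were 0.11 (SE 0.0937) for *Ythdf1* and 0.19 (SE 0.0920) for *Ythdf3*, with adjusted p-values of 0.574 and 0.354.

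**Figure D1:**
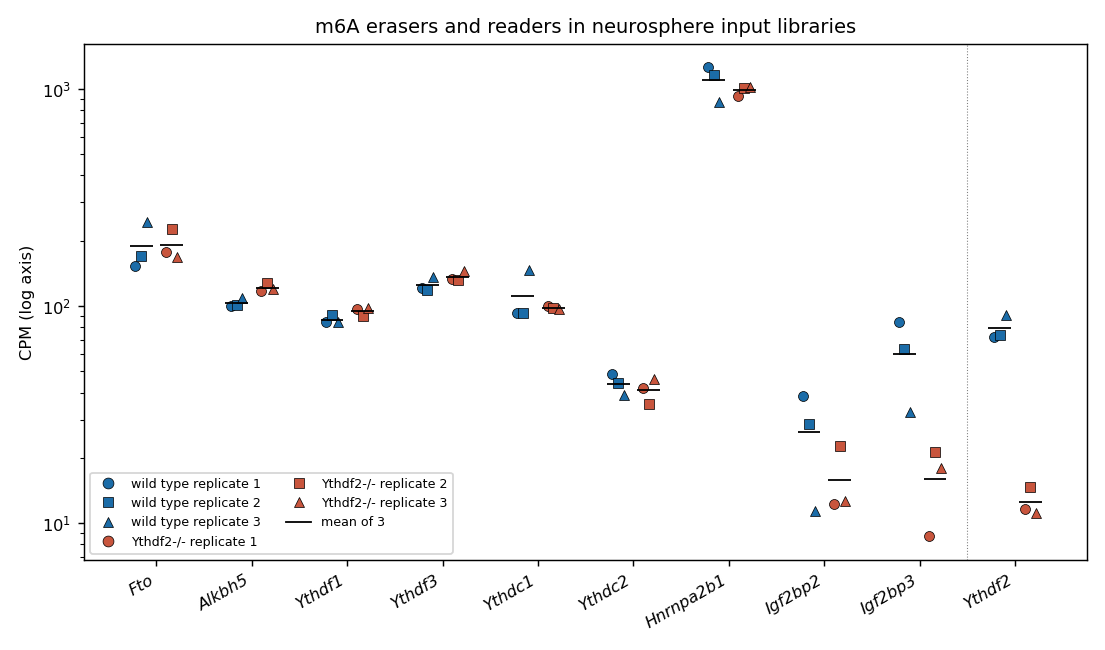
CPM (log axis) of the 9 tested erasers and readers and of *Ythdf2* in the 3 wild-type (blue) and 3 Ythdf2-/- (red) libraries, with marker shape giving the replicate and a line at each mean. *Ythdf2* lies between 71.9 and 91.4 CPM in wild type and between 11.1 and 14.7 CPM in Ythdf2-/-. *Igf2bp3* is the other gene whose Ythdf2-/- libraries all lie below the wild-type ones, and *Alkbh5* the gene whose Ythdf2-/- libraries all lie above.

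To compare levels between genes, reads were divided by the gene length in the deposited tables, giving RPKM, which scales reads to gene length and to the plain library total, without TMM factors. On this scale the 3 *Ythdf* genes summed to 67.7, 69.2 and 74.6 in the wild-type libraries and to 59.2, 58.9 and 61.0 in the Ythdf2-/- libraries. The totals were thus lower in every Ythdf2-/- library. *Ythdf1* and *Ythdf3* together stood at 50.1, 51.3 and 52.4 RPKM in wild type and 56.3, 55.2 and 58.3 RPKM in Ythdf2-/-. These sums did not overlap, but on the TMM-scaled CPM the gap was small, with wild type up to 219.7 and Ythdf2-/- from 220.9 CPM. *Ythdf1* in Ythdf2-/- replicate 2 likewise exceeded all wild-type libraries in RPKM (29.0 against at most 28.4) but not in CPM. Of single tested genes, 5.24% were higher in all 3 Ythdf2-/- libraries. Their mean combined level differed by 5.34 RPKM (5.91 without wild type replicate 3), and that of *Ythdf2* by 16.1 RPKM in the other direction (14.7 without it). Neither *Ythdf1* nor *Ythdf3* passed the test. *Ythdf2* made up 27.2% ± 2.22 of the family in wild type and 5.17% ± 0.972 in Ythdf2-/- (SD, n = 3). The ratio of *Ythdf1* to *Ythdf3* was 1.13 ± 0.117 and 1.13 ± 0.0448, which shows no shift between these paralogs beyond the spread.

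**Figure D2:**
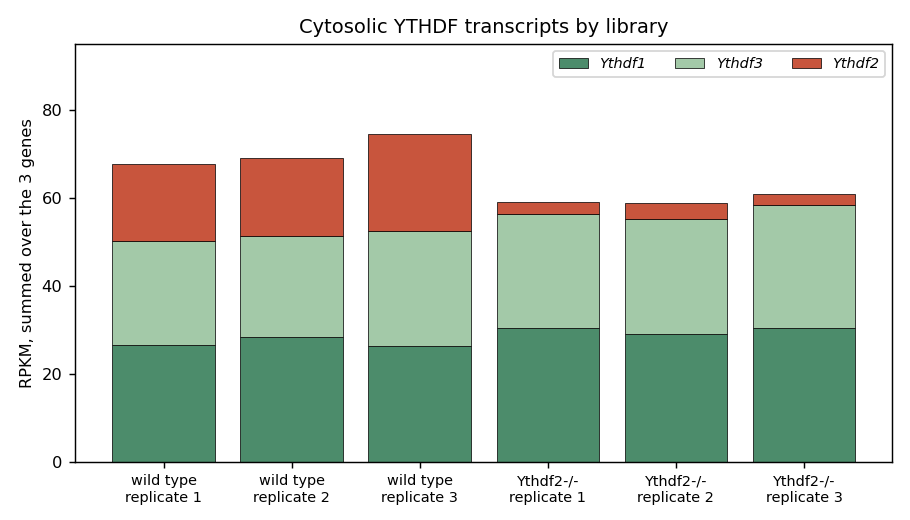
RPKM of *Ythdf1* (dark green), *Ythdf3* (light green) and *Ythdf2* (red), stacked for each of the 6 libraries. The stacks reach 67.7 to 74.6 RPKM in wild type and 58.9 to 61.0 RPKM in Ythdf2-/-, and the green parts together 50.1 to 52.4 and 55.2 to 58.3 RPKM.

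The nuclear reader *Ythdc1*, on chromosome 5 from 86803980 to 86836659, which acts in splicing and export of methylated transcripts, had 93.3, 93.3 and 145.9 CPM in wild type (1090, 1223 and 1594 reads) and 99.7, 98.0 and 96.5 CPM in Ythdf2-/- (1169, 1323 and 1199 reads). All 3 Ythdf2-/- libraries sat above wild type replicates 1 and 2 and far below replicate 3. Its log2 fold change was -0.18 (SE 0.202, 95% interval -0.67 to 0.31, adjusted p = 0.9994 by edgeR) and turned to 0.07 (SE 0.0832) without wild type replicate 3. No direction can therefore be given for *Ythdc1*.

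The helicase reader *Ythdc2* lies on chromosome 18 and was measured at 48.6, 44.3 and 38.8 CPM in wild type (568, 581 and 424 reads) and at 42.0, 35.5 and 46.0 CPM in Ythdf2-/- (492, 480 and 572 reads). The groups overlapped in part: wild type replicate 1 was above all Ythdf2-/- libraries, and Ythdf2-/- replicate 2 was below all wild-type libraries. The log2 fold change of -0.09 (SE 0.159, 95% interval -0.48 to 0.29) did not pass the test, nor did the value of -0.17 (SE 0.137) without wild type replicate 3.

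Among the tested readers, *Igf2bp3* had the log2 fold change farthest from 0, and it was negative. This gene, on chromosome 6 from 49085218 to 49215469, codes for a KH-domain protein typical of fetal tissue and tumours. It had 990, 832 and 357 reads in the wild-type libraries and 102, 288 and 224 in the Ythdf2-/- libraries, or 84.7, 63.5 and 32.7 CPM against 8.70, 21.3 and 18.0 CPM. Every Ythdf2-/- library was below every wild-type library, a pattern that 4.92% of the 13112 tested genes showed (5.24% showed the converse). The Ythdf2-/- level was 26.6% of wild type, a 3.76-fold difference (log2 fold change -1.91, SE 0.460, 95% interval -3.03 to -0.80). By edgeR the unadjusted p of *Igf2bp3* was 0.00538 and its adjusted p 0.9994. DESeq2 gave an adjusted p of 0.00349 and limma-voom with sample quality weights 0.0273, and over all 18 alternatives on the counts it ran from 1.2e-06 to 1.0.

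Read against the background, edgeR called 0 of 13112 genes (0.0%) at an adjusted p under 0.05, while 239 genes (1.82%) were lower and 237 (1.81%) higher at an unadjusted p under 0.05. *Igf2bp3* was the only member among these 476 genes. DESeq2 called 49 genes lower, or 0.336% of the 14597 to which it gave an adjusted p, with *Igf2bp3* among them. It called 39 higher (0.267%), with no member. Limma-voom with quality weights, which gave wild type replicate 3 a weight of 0.0901, called 299 genes lower (2.28%), *Igf2bp3* and *Igf2bp2* among them, and 333 higher (2.54%), again with no member. A log2 fold change as low as that of *Igf2bp3* or lower was found for 103 genes (0.786%). Without wild type replicate 3 the log2 fold change of *Igf2bp3* was -2.21 (SE 0.353, adjusted p = 0.151 by edgeR and 1.2e-06 by DESeq2). DESeq2 then called 193 genes lower, or 1.44% of the 13408 to which it gave an adjusted p, and 143 higher, or 1.07%.

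*Igf2bp2*, on chromosome 16 from 22059009 to 22163299, is the family member that stays expressed in adult tissues. It had 449, 376 and 125 reads in wild type (38.4, 28.7 and 11.4 CPM) and 144, 307 and 158 in Ythdf2-/- (12.3, 22.7 and 12.7 CPM). Wild type replicates 1 and 2 were above all Ythdf2-/- libraries and replicate 3 was below them all. The log2 fold change was -0.72 (SE 0.479, 95% interval -1.88 to 0.44, adjusted p = 0.9994 by edgeR). Leaving out wild type replicate 3 moved it to -1.07 (SE 0.303), with an adjusted p of 0.213 by edgeR and 0.0457 by DESeq2, in a range of 0.0433 to 1.0 over the alternatives. *Igf2bp3* exceeded *Igf2bp2* in every wild-type library, at 2.21, 2.21 and 2.86 times its CPM, and stood at 0.708, 0.938 and 1.42 times its CPM in the Ythdf2-/- libraries.

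Since *Igf2bp2* and *Igf2bp3* are paralogs with 70.1% identical coding sequence, their longest shared coding stretch, 17 bases, is shown as for the *Ythdf* genes. It lies at chr16:22081788-22081816 and chr6:49117206-49117234, both on the minus strand.
Igf2bp2: ctggtcCCCACCCAGTTTGTTGGtgccat
Igf2bp3: ctggttCCCACCCAGTTTGTTGGagccat
In the exons of *Igf2bp2* 0.595% and in those of *Igf2bp3* 0.348% of 32-base words occurred more than once in the genome.

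*Igf2bp1* had 0, 1 and 1 reads in wild type and 0, 0 and 0 in Ythdf2-/-. A count of 0 allows up to 3 reads, or 0.228 to 0.256 CPM in the 4 libraries without a read. No fold was computed. Its exons on chromosome 11 overlap those of *Mir3063* by 92 bases on the same strand, and it was the only member with such an overlap.

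Proliferation markers differed between the libraries along with these readers. Their summed level was 2396, 2131 and 124.1 CPM in wild type and 1620, 1905 and 1839 CPM in Ythdf2-/-. Among the 5 libraries other than wild type replicate 3, those with more of these markers also had more *Igf2bp3*, from 8.70 CPM at 1620 to 84.7 CPM at 2396, and *Igf2bp2* followed the same order. In wild type replicate 3, at 124.1 CPM of markers, *Igf2bp3* departed from the order with 32.7 CPM, whereas *Igf2bp2* followed it with 11.4 CPM, the lowest of the 6 libraries. The part of proliferation in the difference was not tested.

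**Figure D3:**
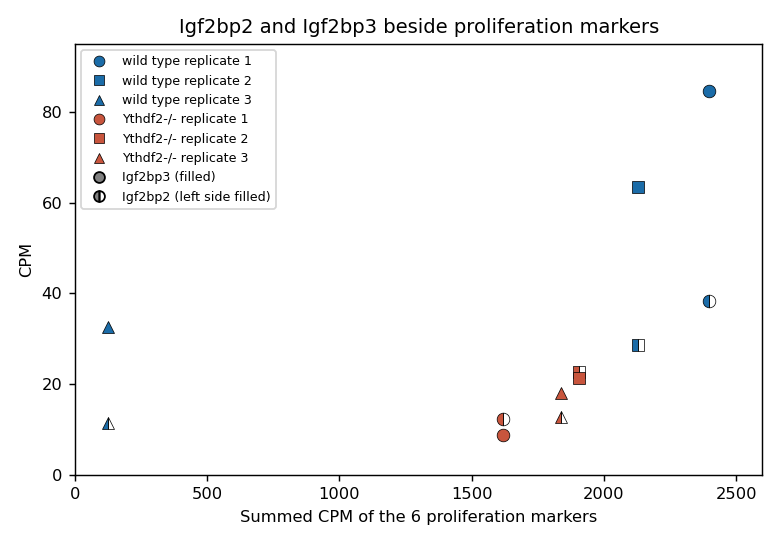
CPM of *Igf2bp3* (filled) and *Igf2bp2* (left side filled) in each library against the summed CPM of 6 proliferation markers. The Ythdf2-/- libraries lie between 1620 and 1905 on the horizontal axis, wild type replicates 1 and 2 at 2396 and 2131, and wild type replicate 3 alone at 124.1.

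*Hnrnpa2b1*, on chromosome 6 from 51460434 to 51470048, was by far the most abundant member. It had 14660, 15253 and 9492 reads in wild type (1255, 1164 and 868.7 CPM) and 10921, 13679 and 12697 in Ythdf2-/- (931.3, 1013 and 1022 CPM). The 3 Ythdf2-/- libraries lay between wild type replicate 3 and the other 2. The log2 fold change was -0.15 (SE 0.196, 95% interval -0.62 to 0.33, adjusted p = 0.9994 by edgeR) and -0.29 (SE 0.131, adjusted p = 0.327) without wild type replicate 3. As 10.8% of its 32-base words occurred more than once in the genome, its count depends more than that of the other members on how such reads were assigned.

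Of the erasers, *Alkbh5* was higher in every Ythdf2-/- library than in any wild-type library, by a small amount. This gene, on chromosome 11 from 60537683 to 60558512, codes for a nuclear demethylase that acts on m6A. It had 1172, 1325 and 1195 reads in wild type (100.3, 101.1 and 109.4 CPM) and 1375, 1730 and 1490 in Ythdf2-/- (117.2, 128.1 and 119.9 CPM). The means were 103.6 ± 5.02 and 121.7 ± 5.66 CPM (SD, n = 3 each), and the log2 fold change was 0.23 (SE 0.111, 95% interval -0.03 to 0.50, adjusted p = 0.9994 by edgeR). With sample quality weights it came to 0.24 (SE 0.0635, adjusted p = 0.0671), the lowest adjusted p of *Alkbh5* among 18 alternatives on the counts, none of which called it. Without wild type replicate 3 the log2 fold change was 0.27 (SE 0.0892, adjusted p = 0.237 by edgeR). Since 5.24% of all tested genes were likewise higher in all 3 Ythdf2-/- libraries, the separation of *Alkbh5* alone does not set it apart.

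*Fto*, on chromosome 8 from 91313367 to 91668433, codes for the other demethylase, which removes methyl groups from m6A and from related methylated bases. It had 153.4, 170.8 and 243.2 CPM in wild type (1793, 2238 and 2657 reads) and 177.5, 225.2 and 169.1 CPM in Ythdf2-/- (2082, 3042 and 2102 reads). The groups overlapped, with means of 189.1 ± 47.6 and 190.6 ± 30.3 CPM (SD, n = 3 each). The log2 fold change of 0.01 (SE 0.220, 95% interval -0.52 to 0.54) changed sign with the library left out, between -0.12 without wild type replicate 1 and 0.23 (SE 0.150) without wild type replicate 3.

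**Figure D4:**
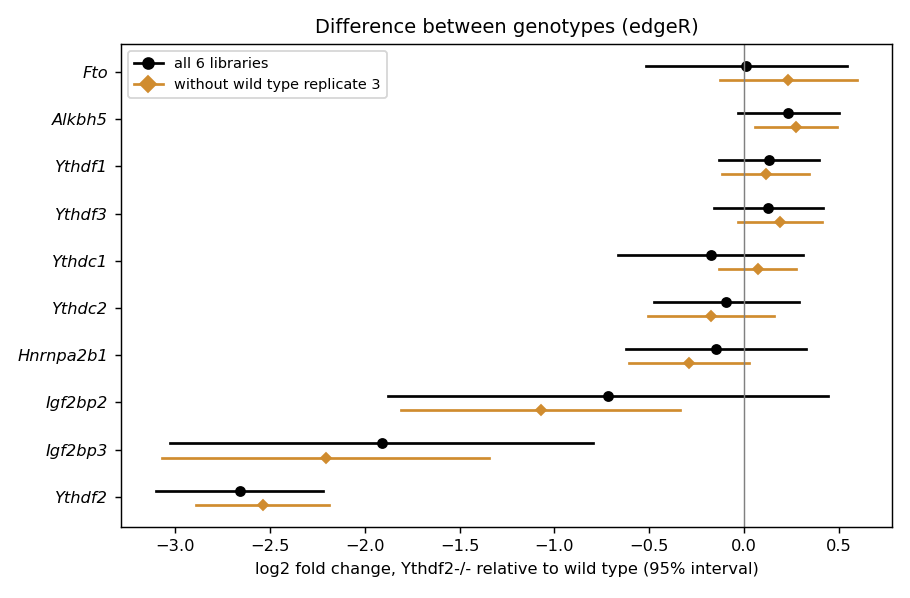
Log2 fold change, Ythdf2-/- relative to wild type, with its 95% interval by edgeR, from all 6 libraries (black circles) and without wild type replicate 3 (orange diamonds). With all libraries the intervals of 8 of the 9 members include 0 and that of *Igf2bp3* runs from -3.03 to -0.80. Without wild type replicate 3 the interval of *Igf2bp2*, at -1.81 to -0.34, and that of *Alkbh5*, at 0.06 to 0.49, exclude 0 as well.

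Over the 9 tested members, 4 had a positive and 5 a negative log2 fold change, with a median of -0.09, beside -0.01 over all 13112 genes. For the 7 tested readers the numbers were 2 and 5, with a median of -0.15. The 2 readers with a positive value were *Ythdf1* and *Ythdf3*. Without wild type replicate 3, *Ythdc1* became positive as well. The members then had 5 positive and 4 negative values with a median of 0.07, against 0.01 over all genes tested, and the readers 3 and 4 with a median of -0.17. No member passed the edgeR threshold in either direction. Neither did any other of the 13112 genes, the deleted *Ythdf2* among them (adjusted p = 0.0547 by edgeR), so missing it says little about a single member. No reader was called higher by DESeq2 or by either limma-voom fit.

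By RPKM, which is comparable between genes, the wild-type order was *Hnrnpa2b1* (486.6), *Fto* (52.8), *Ythdc1* (36.3), *Ythdf1* (27.1), *Ythdf3* (24.2), *Alkbh5* (17.1), *Igf2bp3* (13.8), *Ythdc2* (6.93) and *Igf2bp2* (6.69), with *Igf2bp1* near 0. The ranges over the wild-type libraries overlapped between *Fto* and *Ythdc1*, between *Alkbh5* and *Igf2bp3*, between *Igf2bp3* and *Ythdc2*, and between *Ythdc2* and *Igf2bp2*. Within each wild-type library, *Fto* was still above *Ythdc1* and *Igf2bp3* above *Ythdc2*. The pairs *Alkbh5* and *Igf2bp3*, and *Ythdc2* and *Igf2bp2*, changed order between libraries and cannot be ordered. In Ythdf2-/- the first 6 places were the same, and *Igf2bp3* moved from place 7 to place 9, at 3.71 RPKM, although its range there overlapped that of *Igf2bp2*, whose range in turn overlapped that of *Ythdc2*. The place of *Ythdc1* depends on its length: with the summed exon length of the annotation its wild-type level was 25.8 RPKM, under that of *Ythdf1*.

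GGACT, a common form of the sequence in which m6A is laid down, was counted on the sense strand of a transcript of each gene. Over 12133 tested genes the median was 1.05 GGACT per kilobase, and 92.8% of them had at least 1. *Alkbh5* held 10, or 1.66 per kilobase, more than 79.8% of those genes, and *Igf2bp2* and *Ythdf2* held 5 each, at 1.28 and 1.23 per kilobase. *Ythdf1* and *Ythdf3* held 1 each, at 0.315 and 0.193 per kilobase. *Igf2bp3* held 2, at 0.460 per kilobase. A match does not show that the site was methylated in these cells.

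Other genes of the pathway were taken from lists. Of the m6A methyltransferase complex, which writes the mark, all 9 genes were tested, 4 were higher and 5 lower (median log2 fold change -0.01), and none had an unadjusted p under 0.05 by edgeR. The subunits with the highest mean CPM were *1110037F02Rik* (94.4 ± 7.49 CPM in wild type and 104.8 ± 3.20 CPM in Ythdf2-/-) and *Wtap* (93.9 ± 7.37 and 93.0 ± 2.57 CPM). Their log2 fold changes were 0.15 (SE 0.116) and -0.01 (SE 0.115). *1110037F02Rik* was higher in all 3 Ythdf2-/- libraries, as were 5.24% of all tested genes. *Mettl14*, the partner of the catalytic subunit, was at 52.1 ± 2.76 and 46.1 ± 2.59 CPM, and lower in all 3 Ythdf2-/- libraries, as were 4.92% of all tested genes, with a log2 fold change of -0.18 (SE 0.119), or -0.13 without wild type replicate 3.

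Of the CCR4-NOT deadenylase, to which Ythdf2 brings its targets, 8 of 12 subunits were higher and 4 lower, with a median of 0.05, and none had an unadjusted p under 0.05. Its scaffold subunit *Cnot1* was at 244.4 ± 7.53 CPM in wild type and 235.0 ± 30.6 CPM in Ythdf2-/-. *Cnot6*, a catalytic subunit, was at 274.1 ± 21.5 and 261.0 ± 20.1 CPM, and *Cnot7*, another, at 102.3 ± 15.4 and 87.7 ± 3.15 CPM. The log2 fold change of *Cnot7*, -0.22 (SE 0.143), was -0.09 without wild type replicate 3.

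Of 17 other RNA-binding proteins proposed to sense m6A, 5 were higher and 12 lower, with a median of -0.09. Over all tested genes 6304 were higher and 6808 lower. Without wild type replicate 3 the list had 3 higher and 14 lower, with a median of -0.08. All genes tested then had 6872 higher and 6411 lower, with a median of 0.01. *Rbmx*, a nuclear protein whose binding depends on RNA structure near the mark, had 1801, 1953 and 2063 reads in wild type and 1427, 1689 and 1383 in Ythdf2-/-. The groups did not overlap, as for *Matr3*, *G3bp2* and *Fxr2* of this list and for 4.92% of all tested genes in this direction. By edgeR the log2 fold change of *Rbmx* was -0.46 (SE 0.140, unadjusted p = 0.0156, adjusted p = 0.9994), and -0.35 without wild type replicate 3 (adjusted p = 0.202). *Rbmx* was the only gene of the list under an unadjusted p of 0.05, as were 3.63% of all tested genes in either direction. *G3bp2* and *Fxr2* were named after their values were seen. *Prrc2a* and *Matr3* had the highest mean CPM of this list, without regard to gene length. They stood at 565.4 ± 91.8 and 534.0 ± 66.9 CPM in wild type and at 582.7 ± 14.2 and 481.1 ± 9.55 CPM in Ythdf2-/-.

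Of the other AlkB family genes 4 of 7 were higher and 3 lower, with a median of 0.04. *Alkbh8*, a tRNA methyltransferase and hydroxylase, had 271, 261 and 283 reads in wild type and 239, 367 and 373 in Ythdf2-/-, and *Alkbh1*, a demethylase of tRNA, was at 24.2 ± 4.98 and 18.4 ± 1.87 CPM, with a log2 fold change of -0.40 (SE 0.199) that came to -0.22 without wild type replicate 3. Without that library 3 of the 7 were higher and 4 lower, with a median of -0.10. Among 12 genes known beside the Igf2bp family in fetal growth, 7 passed the filter, 2 higher and 5 lower, with a median of -0.09. The imprinted RNA *H19* had 109, 92 and 586 reads in wild type and 5, 98 and 1 in Ythdf2-/-, so that the groups overlapped (log2 fold change -3.15, SE 1.48, adjusted p = 0.9994 by edgeR). Most of its wild-type reads were in replicate 3, and without that library the log2 fold change was -1.63 (adjusted p = 0.536). *Myc* (65.6 ± 5.57 and 63.5 ± 30.1 CPM) and *Igf1r* (91.0 ± 18.9 and 104.1 ± 23.5 CPM), a growth factor receptor, showed no difference beyond their spread.

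For each tested member, the gene with the most similar log2 CPM over the 6 libraries was sought among the other 13111. The nearest was *Jup* for *Ythdf1* (Pearson's r = 0.987), *Ankrd17* for *Ythdf3* (0.996), *Ddx17* for *Ythdc1* (0.998), *Ciapin1* for *Ythdc2* (0.993), *9430015G10Rik* for *Igf2bp2* (0.995), *Tmem161a* for *Igf2bp3* (0.993), *Polr2d* for *Hnrnpa2b1* (0.998), *Endov* for *Fto* (0.997) and *Gas7* for *Alkbh5* (0.985). Between 81 genes for *Igf2bp3* and 1057 for *Ythdc1* had an r above 0.9. These are descriptions over 6 libraries, wild type replicate 3 among them. Each r is the highest among 13111 genes, so a high value was built in. Without wild type replicate 3 the same pairs had r from 0.922 (*Ddx17* with *Ythdc1*) to 0.998 (*9430015G10Rik* with *Igf2bp2*). The member nearest to *Igf2bp3* was *Igf2bp2* (r = 0.781).

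A second deposited table per library, with the columns of an RSEM output, gave other values for the same genes. Its expected counts summed to 1.97% to 2.40% of the raw counts. *Igf2bp3* was listed at 20, 17 and 22 expected counts in wild type and 21, 26 and 26 in Ythdf2-/-, and *Ythdf2* at 0, 0 and 0 and at 0, 0 and 1. The raw counts of both genes were lower in every Ythdf2-/- library, and the expected counts were not. The FPKM of *Igf2bp3* in the same table was 18.7, 14.99 and 19.1 in wild type and 20.5, 21.9 and 22.8 in Ythdf2-/-, which separated the genotypes in the opposite direction to the raw counts. Over the 7224 genes with more than 2000 raw reads in all, the rank correlation of raw and expected counts within a library was 0.261 to 0.356 (a description across genes, which are not independent replicates). The values above rest on the raw counts.

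**Figure D5:**
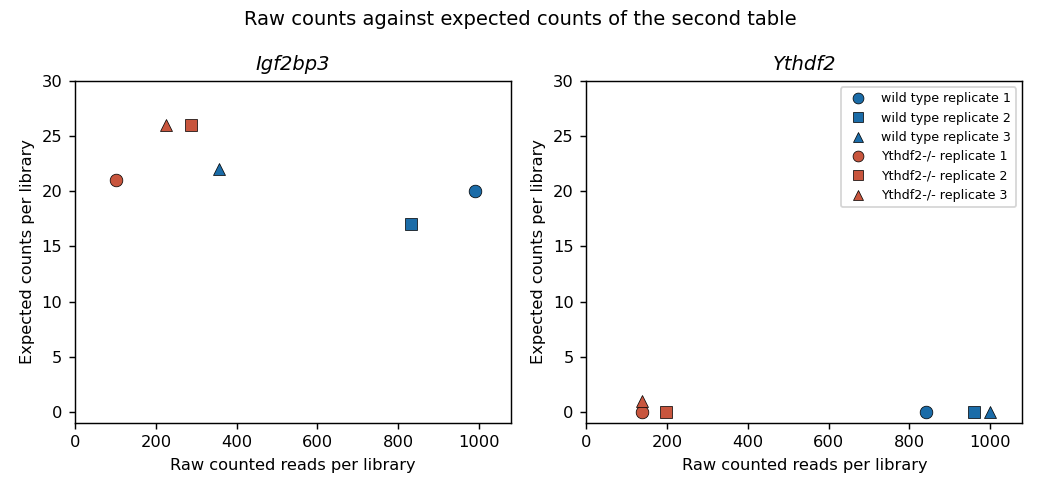
Expected counts against raw counted reads in the 6 libraries for *Igf2bp3* (left) and *Ythdf2* (right). *Igf2bp3* runs from 102 to 990 raw reads but from 17 to 26 expected counts, and *Ythdf2* lies at 0 or 1 expected counts at 137 to 999 raw reads.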

How the data were processed

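RNA was measured in 6 input libraries, 3 wild type and 3 Ythdf2-/-, grouped by the genotype in the sample labels. The authors made libraries from fragmented mRNA with a strand-specific kit, used TopHat for alignment to mm10, and deposited raw counts per gene symbol without normalization. The submitters' processing notes also name featureCounts, Bowtie2 2.2.9 and RSEM 1.2.15. The strand setting and the handling of reads that map to several places are not given in the sources used here. The authors also deposited expected counts, TPM and FPKM per gene, in tables with RSEM columns, whereas the methods describe Cuffnorm; the FPKM values were used in alternatives, the gene lengths for RPKM, and TPM was not used.

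From the raw counts, 13112 of 24525 genes passed edgeR's filterByExpr and were tested with edgeR 4.0.16 in R 4.3.3 (TMM factors of 0.988 to 1.03, glmQLFit with the robust option, glmQLFTest, two-sided, genotype as the only term, Benjamini-Hochberg adjustment, threshold 0.05). The common biological coefficient of variation was 0.332. CPM used TMM-scaled totals, and log2 CPM a prior count of 2. DESeq2 1.42.0, limma-voom (limma 3.58.1), other scalings and filters, a term for Y-linked reads (a sum above 3), the replicate block, each library left out, and limma on log2(FPKM + 1) and log2(FPKM + 0.1) were alternatives. DESeq2 without wild type replicate 3 was added after the data had been seen. Fits were tested on simulated data. With 3 libraries against 3, an exact permutation test cannot go below 0.1. Depth sets counting error only.

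Positions, coding sequences and GGACT counts came from the RefSeq annotation of GRCm38.p6. Python 3.11.15 with numpy 2.4.6 and pandas 2.3.3 was used. The members, the pathway lists and the marker lists were chosen with earlier results of these data known. Named were the members, *Ythdf2*, the 2 genes with the highest mean CPM and the gene with the smallest p of each list, and each member's nearest gene.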

Additional observations from a re-analysis of the deposited data

How the results depend on the processing

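Under 18 alternatives on the raw counts, *Alkbh5*, *Ythdf1* and *Ythdf3* kept a positive and *Igf2bp2*, *Igf2bp3*, *Hnrnpa2b1* and *Ythdf2* a negative log2 fold change. *Igf2bp3* ranged from -2.65 to -1.58 and passed the threshold in 3 alternatives, *Igf2bp2* from -1.26 to -0.34 in 2, and the other members in none. *Ythdf2* itself passed it in 9 of the 18. The number of genes called, 0 by edgeR, was 88 by DESeq2, 632 with sample quality weights, 1 each with RLE factors, upper-quartile factors, no filter and at least 10 reads in every library, 13 with the term for Y-linked reads, and 336 by DESeq2 without wild type replicate 3. Leaving out each library gave 0 to 2, the 2 without wild type replicate 3. Members called numbered 1 by DESeq2, and 2 with quality weights and by DESeq2 without wild type replicate 3. The median log2 fold change of the members was 0.0741 with quality weights, -0.0407 with the Y-linked term, -0.165 to 0.0713 with a library left out, and 0.14 on log2(FPKM + 0.1). *Fto* turned to -0.11 with the Y-linked term and ranged from -0.12 to 0.23 with a library left out. *Ythdc1* turned to 0.0741 with quality weights, ranged from -0.285 to 0.0713 with a library left out, and was 0.0715 by DESeq2 without wild type replicate 3. *Ythdc2* ranged from -0.181 to 0.0125 with a library left out.

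On log2(FPKM + 1) the sign turned for *Fto* (-0.45), *Alkbh5* (-0.19), *Ythdf3* (-0.0517), *Ythdc2* (0.47), *Igf2bp2* (0.33), *Igf2bp3* (0.30) and *Ythdf2* (0.32). On log2(FPKM + 0.1) it turned for *Fto* (-1.24), *Alkbh5* (-0.20), *Ythdc2* (1.91), *Igf2bp2* (1.15), *Igf2bp3* (0.31) and *Ythdf2* (1.13). By deposited FPKM, 2 of the 10 members kept their place in the wild-type order. The cause was not tested, and these tables rest on 1.97% to 2.40% as many reads.

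Deviations of same-numbered libraries from their group means correlated at -0.248, -0.244 and -0.394. The wild-type mean includes wild type replicate 3, which stood apart and shapes the deviations of all wild-type libraries. These correlations therefore cannot decide whether the replicate numbers pair the libraries. With the replicate block edgeR called 0 genes, 183 had an unadjusted p under 0.05 instead of 476, and *Igf2bp3* stood at -1.88 (SE 0.549).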
